A study of Homo sapiens with 6 samples.

Results

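The AP-1 subunits and small MAF factors considered here are 10 genes, FOS, FOSB, FOSL1, FOSL2, JUN, JUNB, JUND, ATF3, MAFF and MAFK, taken by gene symbol from a deposited table of 46427 genes; all 10 were present and all 10 passed the filter on low counts. Their transcripts were measured with a stranded mRNA library kit in VK2/E6E7, a human vaginal epithelial line immortalised with the papillomavirus E6 and E7 genes and labelled WT in both groups. The control group received PBS and the other group received a lactic acid bacterium, Lactobacillus salivarius strain HHuMin-U (HMU), at 1e8 CFU/mL, both for 6 h, in serum-free keratinocyte medium with epidermal growth factor, bovine pituitary extract and antibiotics. Each group had 3 libraries, described as biological replicates of this 1 cell line, and no other time or dose was measured. The study set these groups against each other to learn what the bacterium does to vaginal epithelial cells.

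Total counts were 64292566 to 65957584 per library. All 7 epithelial markers examined, among them KRT5, KRT14 and TP63, were above 1 TPM (transcript level per length, scaled to the same sum in each library), and their summed level was 72230 to 74070 TPM in PBS and 55976 to 59987 TPM in HMU. The 5 leukocyte markers summed to 2.37 to 2.89 TPM in PBS and 6.65 to 9.95 TPM in HMU, with MS4A1 at 0 counts throughout. The 3 endothelial markers summed to 0.120 to 0.195 TPM in PBS and 0.662 to 1.08 TPM in HMU, and the 6 fibroblast markers to 48.9 to 52.5 TPM and 30.8 to 34.5 TPM. Among these leukocyte, endothelial and fibroblast markers, only CD14, COL1A1 and DCN reached a mean of 1 TPM. CD14 was at 2.41 TPM in PBS and 8.38 TPM in HMU, COL1A1 at 47.9 and 30.2 TPM, and DCN at 2.24 and 1.78 TPM. The part of these shifts, and of the mitochondrial share (5.55% to 6.13% of counts in PBS, 6.95% to 7.17% in HMU), in the results that follow was not tested.

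HMU replicate 2 stood apart. Comparing counts gene by gene, chi-square divided by its degrees of freedom came to 63.7 and 109 between it and the other HMU libraries, against 13.5 between those and 4.87 to 5.91 among PBS libraries. Its deviation followed transcript length, as implied by the deposited counts and FPKM. Relative to the other HMU libraries its median log2 CPM (counts scaled to a common library size) was higher by 0.262 for the 5997 shortest genes and lower, at -0.279, for the 5997 longest. In length order of all tested genes, the shift between groups had the same sense. Its median log2 fold change was 0.185 for the shortest and -0.173 for the longest genes. That shift takes in HMU replicate 2, so it is not separate from the deviation of this library, and it was not computed without it. Values without HMU replicate 2, and with the length trend of each library removed, are therefore given beside many of the fold changes and counts below. Shares, ratios and sums of TPM were not computed with the length trend removed.

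AP-1 is a family of dimeric transcription factors with a basic leucine zipper. FOS proteins (FOS, FOSB, FOSL1 or Fra-1, FOSL2 or Fra-2) cannot pair with themselves and bind DNA with a JUN protein (JUN, JUNB, JUND), while JUN proteins can also pair with each other; MAP kinase signalling raises both their transcription and their activity. In stratified squamous epithelium, AP-1 sites lie in the promoters of differentiation genes such as the involucrin gene IVL. ATF3, a stress-induced relative, pairs with JUN proteins or with itself. The small MAF proteins MAFF, MAFG and MAFK have the zipper but no activation domain, so that their effect depends on the partner: with NFE2L2 (NRF2) they activate antioxidant genes, and with BACH1 or themselves they repress.

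Of the 10 genes, 8 had an entry in RefSeq's promoter table (GRCh38.p14); FOSL1 and MAFK are named only. The 250 bases before each listed start were searched on both strands for TGANTCA, the AP-1 element, and TGACNTCA, the longer form that JUN and ATF proteins also bind, and for the CArG box and the kappaB site. TGACNTCA was found before 4 genes, JUN, JUND, ATF3 and MAFF, and in 6.87% of all 35116 windows of this length. The first count is over genes and the percentage over windows. The 8 genes had 10 windows, since ATF3 and MAFF each have a second listed start, before which TGACNTCA was not found. Within these 250 bases TGANTCA (6.57% of all windows) and the CArG box (1.16%) were found before none of the 8, and a kappaB site (9.96%) before a second listed start of MAFF. Bases further upstream were not searched, so sites there would be missed. No match overlapped a match to another motif. The 4 windows with TGACNTCA are shown because it was the motif searched for that several members held; it is in capitals, and positions count back from -1, the base before the start. The match lies at -67 to -60 for JUN, -200 to -193 for JUND, -123 to -116 for ATF3 and -54 to -47 for MAFF. The windows are chr1:58784048-58784297 (minus strand) for JUN, chr19:18281623-18281872 (minus strand) for JUND, chr1:212565157-212565406 (plus strand) for ATF3 and chr22:38201744-38201993 (plus strand) for MAFF.
JUN: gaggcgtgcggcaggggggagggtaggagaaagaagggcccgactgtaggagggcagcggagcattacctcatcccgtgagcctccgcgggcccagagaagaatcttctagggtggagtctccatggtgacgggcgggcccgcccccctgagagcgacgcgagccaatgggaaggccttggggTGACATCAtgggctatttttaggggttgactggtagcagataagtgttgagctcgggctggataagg
JUND: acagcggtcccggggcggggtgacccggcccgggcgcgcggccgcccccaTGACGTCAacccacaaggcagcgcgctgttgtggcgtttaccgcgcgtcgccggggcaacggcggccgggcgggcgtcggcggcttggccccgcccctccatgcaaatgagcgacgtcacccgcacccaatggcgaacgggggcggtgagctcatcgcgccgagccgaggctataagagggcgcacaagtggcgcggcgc
ATF3: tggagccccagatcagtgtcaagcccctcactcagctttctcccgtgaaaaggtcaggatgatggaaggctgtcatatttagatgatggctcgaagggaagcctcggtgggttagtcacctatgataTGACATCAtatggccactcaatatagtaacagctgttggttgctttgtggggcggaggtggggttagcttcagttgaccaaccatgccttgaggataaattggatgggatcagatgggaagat
MAFF: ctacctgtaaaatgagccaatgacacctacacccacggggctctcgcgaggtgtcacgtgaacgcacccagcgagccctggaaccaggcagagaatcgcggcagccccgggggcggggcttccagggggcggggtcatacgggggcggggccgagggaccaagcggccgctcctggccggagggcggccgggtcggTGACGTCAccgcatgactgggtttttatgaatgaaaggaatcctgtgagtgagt
The genes with this element did not respond alike: JUN was not called and MAFF rose 2.75-fold. A match is a string of letters and does not show that a factor binds there.

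FOSL1, MAFF, MAFK and JUND were the members with the largest rises after HMU, at 5.11-fold, 2.75-fold, 2.51-fold and 1.61-fold. FOS and ATF3 were higher by less than 1.3-fold, FOSL2 was lower, and FOSB, JUN and JUNB did not pass the test. In edgeR's quasi-likelihood test, with p adjusted by Benjamini-Hochberg over all 17990 tested genes and called under 0.05, 6 of the 10 were higher, where 24.8% of all tested genes were higher, and 1 was lower, where 24.9% were. The median log2 fold change of the 10 was 0.33, against -0.00 for all tested genes, and the PBS and HMU values did not overlap for 9 of them, as for 62.3% of all genes. In bulk RNA such as this, a change in the share of cells that express a gene and a change in RNA per cell cannot be told apart. Levels below are CPM after TMM scaling, a scaling that assumes most genes do not shift. With library sizes only, the median of all genes moved by -0.28 on the log2 scale, the median of the 10 was 0.05, 4 of them were higher and 2 lower, and 13.4% and 43.7% of all genes were. On log2(TPM + 1) the median log2 fold change of all genes was -0.27. Without HMU replicate 2, 8 were higher and 2 lower, against 29.4% and 29.7% of all genes. With the length trend removed, 5 were higher and 2 lower, against 26.1% and 28.4%. FOSL1, MAFF, MAFK and JUND were called higher under each of the 17 alternative settings.

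**Figure D1:**
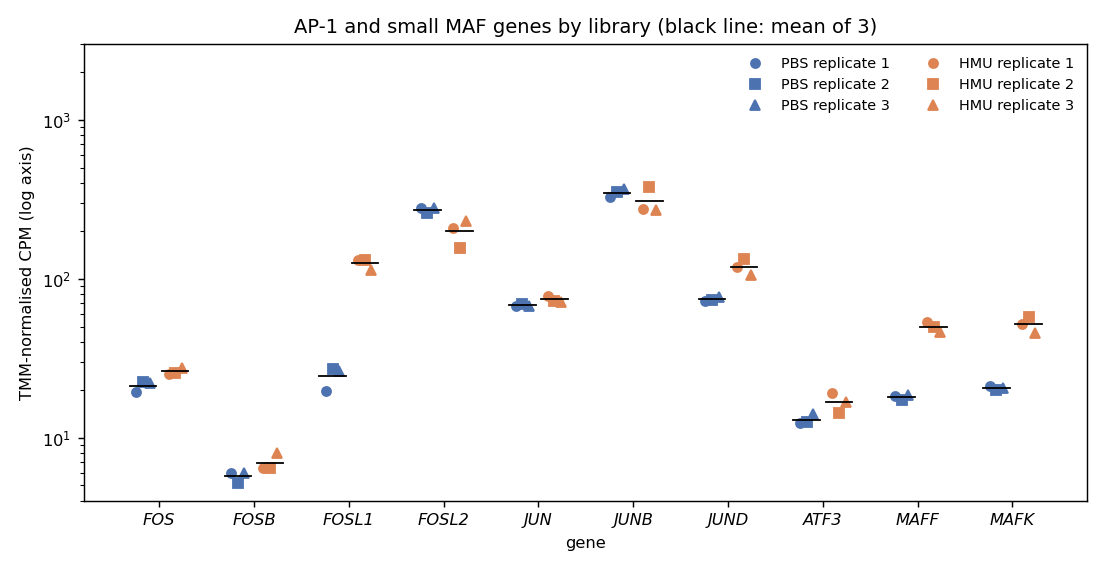
TMM-normalised CPM (log axis) of each of the 10 genes in each of the 6 libraries, PBS in blue and HMU in orange, with a marker shape for each replicate number and a black line at the mean of 3. FOSL1, JUND, MAFF and MAFK stand clearly higher in HMU, and FOSL2 and JUNB show the widest spread among HMU libraries, with replicate 2 lowest for FOSL2 and highest for JUNB.

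Among FOS genes, FOSL1 (gene ID 8061, chromosome 11 from 65892049 to 65900545, GRCh38) encodes a subunit that lacks the strong activation domain of FOS. It was at 19.6, 27.2 and 26.4 CPM in PBS replicates 1 to 3 and at 131, 130.3 and 114 CPM in HMU replicates 1 to 3. Every HMU library was at least 4 times the highest PBS library. The log2 fold change was 2.35 ± 0.14 SE (edgeR adjusted p = 1.05e-05, n = 3 per group), a larger absolute change than that of 96.6% of tested genes. It was 2.33 without HMU replicate 2 and 2.24 with the length trend removed.

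FOSL2 (gene ID 2355, chromosome 2 from 28392858 to 28417317) encodes the close relative Fra-2 and was the most abundant FOS family transcript in PBS. It was at 279, 259.6 and 278 CPM in PBS and at 209, 156 and 232 CPM in HMU. All HMU values lay below all PBS values, and HMU replicate 2 was lowest. The log2 fold change was -0.45 ± 0.14 SE (edgeR adjusted p = 0.0268). At an implied 8226 bases the transcript is long, with 10.9% of tested genes longer, and in HMU replicate 2 it stood at -0.494 log2 units relative to the other HMU libraries. Without that library FOSL2 fell by 0.30 (edgeR adjusted p = 0.00105), and with the length trend removed also by 0.30 (edgeR adjusted p = 0.00366). The call was lost when PBS replicate 1, 2 or 3 or HMU replicate 1 was left out (edgeR adjusted p = 0.0841, 0.0597, 0.0841 and 0.0627), with log2 fold changes of -0.44 to -0.49.

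FOS itself (gene ID 2353, chromosome 14 from 75278828 to 75282230) is an immediate early gene, whose transcript rises and decays soon after a stimulus. It was at 19.5, 22.4 and 21.9 CPM in PBS and at 25.2, 25.5 and 27.5 CPM in HMU. The groups did not overlap, but the gap between them was about the spread within PBS. A log2 fold change of 0.30 ± 0.083 SE (edgeR adjusted p = 0.0204) became 0.01 with library sizes only (edgeR adjusted p = 0.898) and -0.10 on log2(TPM + 1). The call was also lost with the length trend removed (edgeR adjusted p = 0.0516) and without PBS replicate 1 or 3 (edgeR adjusted p = 0.0943 and 0.0602). FOSB (gene ID 2354, chromosome 19 from 45467996 to 45475179), the least abundant member, was at 6.02, 5.18 and 5.98 CPM in PBS and at 6.39, 6.44 and 7.98 CPM in HMU. Its log2 fold change of 0.28 had a 95% confidence interval from -0.01 to 0.56 and did not pass (edgeR adjusted p = 0.097). It was called without HMU replicate 2 (0.33, edgeR adjusted p = 0.0377) and with the length trend removed (0.32, edgeR adjusted p = 0.0348), and was at -0.00 with library sizes only.

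The make-up of the FOS family does not depend on how libraries are scaled, since a share is taken within a library. TPM, which divides by transcript length, was used so that genes could be set side by side. FOSL1 held 18.0%, 24.1% and 22.7% of the family's TPM in the PBS libraries and 63.5%, 67.5% and 57.7% in the HMU libraries. FOSL2 held 65.1%, 58.0% and 59.9% in PBS and 25.4%, 20.4% and 29.4% in HMU. Per length, the leading FOS family transcript was thus FOSL2 in every PBS library and FOSL1 in every HMU library. Without HMU replicate 2 the FOSL1 share differed between groups by 39.0 percentage points, in place of 41.3. The implied lengths are 2067 bases for FOSL1 and 8226 for FOSL2, and the part of the length trend in these shares was not tested. In read counts, which are not divided by length, FOSL2 led in all 6 libraries, with 12405, 8982 and 14037 counts in HMU against 7749, 7487 and 6883 for FOSL1. The ratio of FOSL1 to FOSL2 TPM went from 0.357 ± 0.0720 to 2.59 ± 0.676 (SD, n = 3), and that of FOSL1 to FOS from 1.43 ± 0.150 to 6.05 ± 0.729. FOS made up 15.1% ± 0.745 of the family in PBS and 10.4% ± 0.690 in HMU, and FOSB 2.28% ± 0.213 and 1.57% ± 0.212. The summed family TPM was 157 ± 6.99 in PBS and 212 ± 20.2 in HMU. Sums of TPM, unlike shares, hold the shift of all genes, whose median on log2(TPM + 1) was -0.27. None of the PBS and HMU values of these shares, ratios and sums overlapped, and each gave p = 0.1 in a two-sided exact permutation test over libraries, the smallest that 3 against 3 can give. Over the 8 TPM ratios computed, the smallest adjusted p (Benjamini-Hochberg, exact permutation tests) was 0.133.

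**Figure D2:**
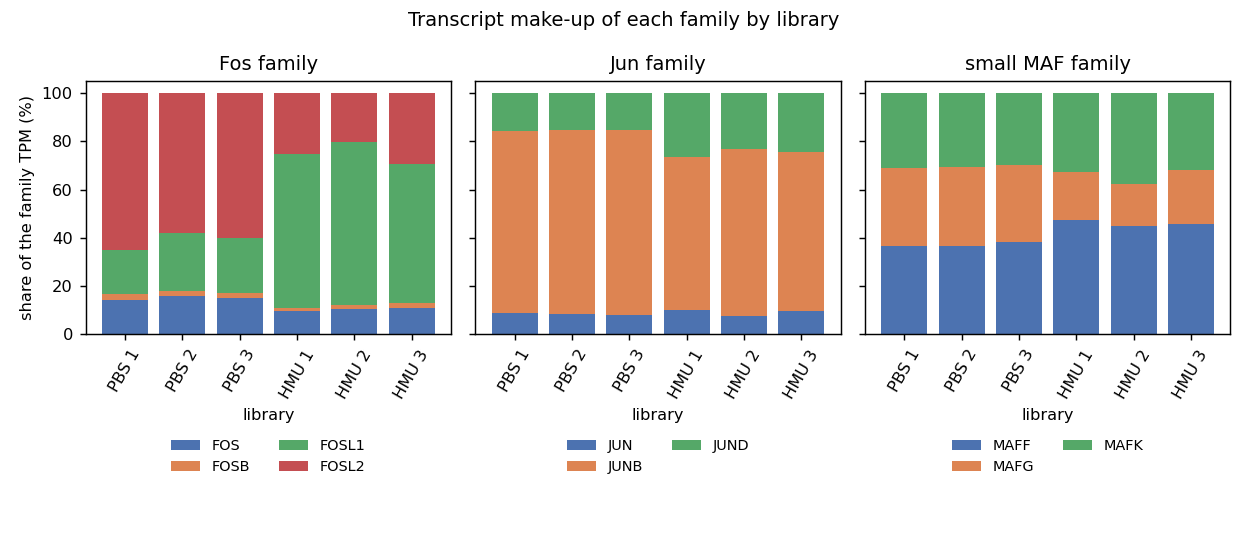
Share of the summed TPM of the FOS family (FOS, FOSB, FOSL1, FOSL2), the JUN family (JUN, JUNB, JUND) and the small MAF family (MAFF, MAFG, MAFK) held by each gene, in percent, as a stacked bar for each library. FOSL1 (green, left) widens from 18.0% to 24.1% in PBS to 57.7% to 67.5% in HMU, JUND (green, centre) widens at the cost of JUNB, and MAFG (orange, right) narrows.

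Among JUN genes, JUND (gene ID 3727, chromosome 19 from 18279694 to 18281622) was the member called higher; its protein is broadly present in resting cells. It was at 72.1, 73.9 and 76.4 CPM in PBS and at 119, 132 and 106 CPM in HMU, so that the lowest HMU library stood well above the highest PBS library. The log2 fold change was 0.68 ± 0.091 SE (edgeR adjusted p = 0.00068), 0.60 without HMU replicate 2, 0.58 with the length trend removed and 0.40 with library sizes only.

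JUNB (gene ID 3726, chromosome 19 from 12791486 to 12793315), whose protein often opposes JUN, was the most abundant member in both groups. It was at 325, 349 and 365 CPM in PBS and at 273, 379 and 272 CPM in HMU. HMU replicates 1 and 3 lay below all PBS libraries and HMU replicate 2 above them. The log2 fold change was -0.17 with a 95% confidence interval from -0.48 to 0.14 (edgeR adjusted p = 0.324). Without HMU replicate 2 it was -0.34 and called (edgeR adjusted p = 0.000248), and it was -0.28 with the length trend removed (edgeR adjusted p = 0.0342). Without HMU replicate 1 or 3 it was -0.09 and not called (edgeR adjusted p = 0.635 and 0.585). JUNB, of an implied 2248 bases, was 0.478 log2 units higher in HMU replicate 2 than in the other HMU libraries. With library sizes only it was called lower (-0.45, edgeR adjusted p = 0.0177). The gene HOOK2 on the other strand shares 259 exon bases with JUNB in GENCODE 29, and was at 32.4 CPM in PBS and 30.6 CPM in HMU.

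JUN (gene ID 3725, chromosome 1 from 58780791 to 58784047), the strongest activator of the family, was at 67.0, 69.5 and 66.9 CPM in PBS and at 78.0, 72.7 and 71.8 CPM in HMU. Its HMU values were all slightly higher, yet the log2 fold change of 0.13 (95% confidence interval from -0.02 to 0.28) did not pass (edgeR adjusted p = 0.141). It passed without HMU replicate 2 (0.15, edgeR adjusted p = 0.0301), and its sign turned with library sizes only (-0.15) and on log2(TPM + 1) (-0.27, limma adjusted p = 0.0195). In these last settings the median log2 fold change of all genes was -0.28 and -0.27.

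Within the JUN family, JUNB held 75.4%, 76.2% and 76.8% of the TPM in PBS and 63.5%, 69.5% and 65.9% in HMU, and JUND held 15.8%, 15.3% and 15.3% and then 26.3%, 23.0% and 24.3%. The JUND to JUNB ratio went from 0.203 ± 0.00607 to 0.371 ± 0.0419 (p = 0.1, exact permutation test, n = 3 per group), also without overlap and with HMU replicate 2 nearest to PBS. The share of JUN was 8.38% ± 0.426 and 9.16% ± 1.46, which overlapped (p = 0.4, exact permutation test). In sum the family was at 585 ± 33.2 TPM in PBS and 448 ± 36.5 TPM in HMU. That fall is to be read beside the median log2 fold change of all genes on log2(TPM + 1), which was -0.27. JUNB thus stayed the leading JUN transcript in all 6 libraries, with a lower share after HMU.

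ATF3 (gene ID 467, chromosome 1 from 212565407 to 212620777) was at 12.4, 12.5 and 13.98 CPM in PBS and at 19.0, 14.2 and 16.9 CPM in HMU. HMU replicate 2 lay next to the highest PBS library. A log2 fold change of 0.37 ± 0.12 SE passed narrowly (edgeR adjusted p = 0.0336) and was 0.47 without HMU replicate 2 (edgeR adjusted p = 0.000488). The call was lost when any 1 of the other 5 libraries was left out (edgeR adjusted p = 0.0573 to 0.119), with the length trend removed (edgeR adjusted p = 0.0842), with no filter on low counts (edgeR adjusted p = 0.0599) and with library sizes only (0.09, edgeR adjusted p = 0.57). On log2(TPM + 1) its sign turned (-0.06).

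Both small MAF members rose. MAFF (gene ID 23764, chromosome 22 from 38201994 to 38216511), the small MAF gene known to respond to inflammatory cytokines, was at 18.2, 17.3 and 18.7 CPM in PBS and at 53.4, 49.7 and 46.2 CPM in HMU. Both groups were tight and far apart. Its rise was 1.46 ± 0.081 SE on the log2 scale (edgeR adjusted p = 8.53e-06). MAFK (gene ID 7975, chromosome 7 from 1530702 to 1543043) was at 21.3, 20.0 and 20.6 CPM in PBS and at 51.7, 57.8 and 45.5 CPM in HMU. Its log2 fold change was 1.33 ± 0.099 SE (edgeR adjusted p = 3.63e-05). In TMM-scaled CPM both genes more than doubled in every HMU library. Without HMU replicate 2 the log2 fold changes of MAFF and MAFK were 1.46 and 1.24, and with the length trend removed 1.41 and 1.34. With library sizes only they were 1.18 and 1.04, and on log2(TPM + 1) 1.01 and 0.86. MAFG, the remaining small MAF gene and not one of the 10, was at 33.8, 33.0 and 33.0 CPM and then at 47.4, 40.1 and 47.7 CPM. MAFG rose by 0.44 ± 0.085 SE (edgeR adjusted p = 0.00424), a call that was lost with library sizes only (0.16, edgeR adjusted p = 0.176) and on log2(TPM + 1) (0.02, limma adjusted p = 0.869). Its log2 fold change was 0.52 without HMU replicate 2 and 0.55 with the length trend removed.

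MAFG fell as a share of small MAF TPM, from 32.4% ± 0.482 to 19.8% ± 2.50, while MAFF went from 37.2% ± 0.979 to 46.1% ± 1.24 and MAFK from 30.4% ± 0.574 to 34.1% ± 3.11. None of these values overlapped between groups (p = 0.1 each, exact permutation test, n = 3 per group). Without HMU replicate 2 the MAFK share differed by 1.90 percentage points in place of 3.69, and in read counts without length scaling by 6.60. The MAFF to MAFK ratio was 1.22 ± 0.0550 in PBS and 1.36 ± 0.143 in HMU, which overlapped. Summed small MAF TPM went from 48.2 ± 0.924 to 80.8 ± 4.75. Neighbours on the other strand touch these genes, and the sources used here do not give whether reads were counted by strand. TMEM184A shares 809 exon bases with MAFK and was lower after HMU (47.4 to 27.1 CPM, log2 fold change -0.80), opposite to MAFK. TMEM184B overlaps the MAFF locus but shares 0 exon bases with it in GENCODE 29, and went from 104 to 170.4 CPM.

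**Figure D3:**
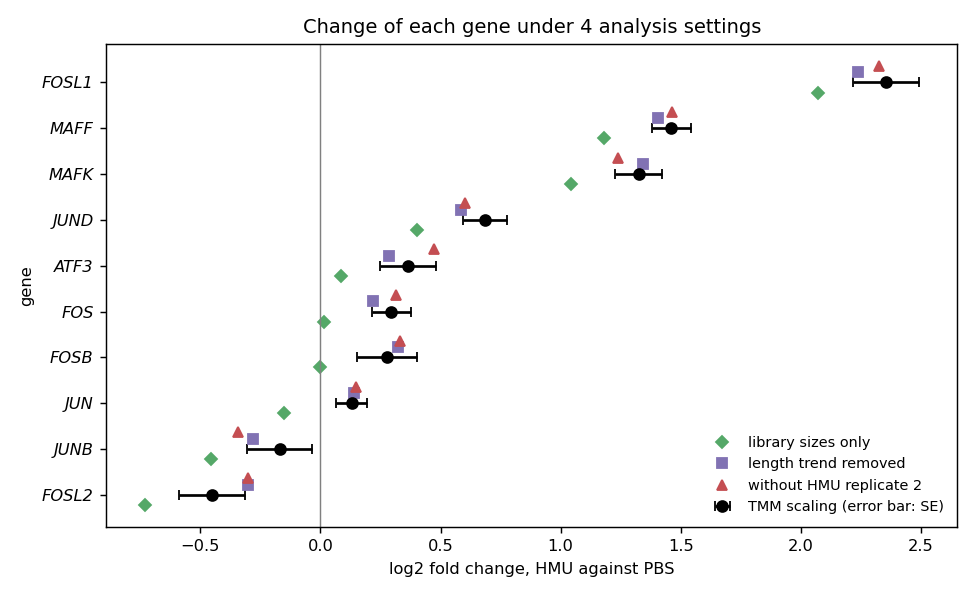
Log2 fold change of HMU against PBS for each gene, sorted by the TMM value (black, with SE), beside the value with library sizes only (green), with the length trend removed (violet) and without HMU replicate 2 (red). The values for FOSL1, MAFF, MAFK and JUND lie right of 0 and those for FOSL2 and JUNB left of 0 under all 4 settings, while FOSB and JUN cross 0 and FOS and ATF3 come close to it with library sizes only.

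Per transcript length, the order of levels in PBS was JUNB (446 TPM), FOSL2 (95.7), JUND (90.4), JUN (49.0), FOSL1 (34.1), FOS (23.8), MAFF (17.9), ATF3 (15.1), MAFK (14.7) and FOSB (3.58). In this order the ranges of FOSL2 and JUND, and of ATF3 and MAFK, overlapped between libraries. In HMU the order was JUNB (297.6 TPM), FOSL1 (133), JUND (109.6), FOSL2 (53.7), JUN (40.6), MAFF (37.3), MAFK (27.5), FOS (22.2), ATF3 (14.6) and FOSB (3.33). There the ranges of FOSL2, JUN and MAFF each overlapped with the others. FOSL1 moved from the fifth to the second place, and JUNB was first and FOSB last in both groups.

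Set against transcript length, the difference between HMU replicate 2 and the other HMU libraries varied among members. JUNB and JUND, of an implied 2248 and 2370 bases, were higher there by 0.478 and 0.238 log2 units, and FOSL2 and MAFG, of 8226 and 6187 bases, were lower, at -0.494 and -0.244. ATF3 (2491 bases, -0.329) and MAFK (4090 bases, 0.253) stood off this order.

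**Figure D4:**
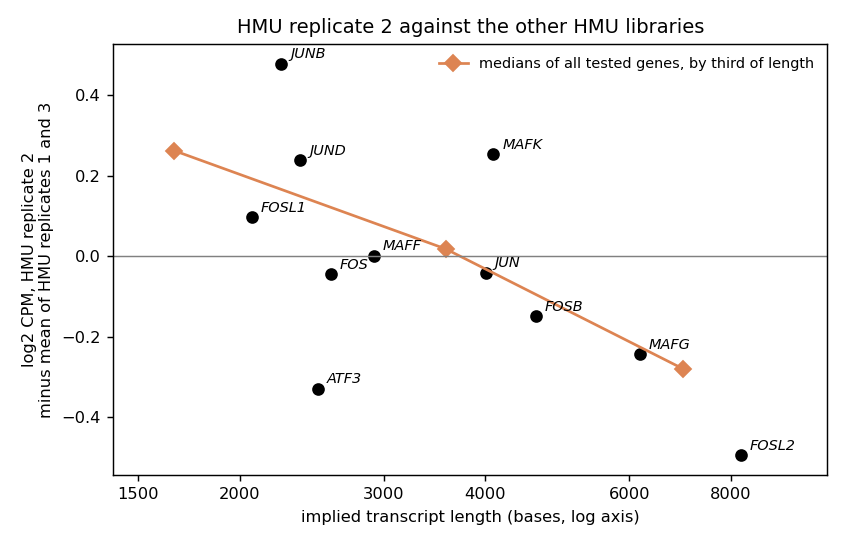
Log2 CPM in HMU replicate 2 minus the mean of HMU replicates 1 and 3 (vertical axis) against implied transcript length in bases (log axis), for the 10 genes and MAFG; orange diamonds are medians of all tested genes in 3 length classes. The medians go from 0.262 through 0.018 to -0.279 with length, JUNB lies highest at 0.478 and FOSL2 lowest at -0.494.

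Other genes of the pathway were counted in lists, to be read against the 24.8% higher and 24.9% lower among all tested genes, or against 13.4% and 43.7% with library sizes only. Among further AP-1 partners, JDP2, which competes with FOS proteins for JUN and represses, fell by 1.81 ± 0.079 SE on the log2 scale (edgeR adjusted p = 2.66e-06), with 61.0 ± 1.00 CPM in PBS and 17.5 ± 1.30 CPM in HMU. ATF2, a JUN partner activated by stress kinases, fell from 29.5 ± 0.213 to 14.2 ± 3.06 CPM, and its relative CREB5 rose from 3.20 ± 0.749 to 9.29 ± 1.93 CPM. Of the 7 listed partners 5 were tested, 1 was higher and 2 lower, against 24.8% and 24.9% of all tested genes, with a median log2 fold change of -0.59. With library sizes only 4 were lower, where 43.7% of all genes were, and with the length trend removed 4 were, where 28.4% were.

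Of 11 other MAF and CNC factors, MAFG among them, 3 were higher and 4 lower, against 24.8% and 24.9% of all tested genes, so that the share of higher genes was near that of all genes. The median log2 fold change of -0.33 rested on few genes: it was -0.13 without HMU replicate 2, -0.17 without HMU replicate 1, -0.22 without PBS replicate 1, -0.51 without HMU replicate 3, and 0.06 over the 9 members left by a filter of 1 CPM in 3 libraries. MAF, a differentiation regulator that carries an activation domain, fell from 60.1 ± 3.62 to 5.20 ± 1.07 CPM, with a log2 fold change of -3.53 ± 0.15 SE (edgeR adjusted p = 2.53e-06). BACH2, a repressor that pairs with small MAF proteins, rose from 5.26 ± 0.608 to 34.5 ± 8.97 CPM, and NFE2L3, an NRF2 relative, from 3.38 ± 0.174 to 5.84 ± 0.252 CPM. The small MAF partner NFE2L2, named after its value was seen, fell by 0.64 ± 0.11 SE on the log2 scale (edgeR adjusted p = 0.00189), with 249.96 ± 7.71 CPM in PBS and 160.2 ± 23.0 CPM in HMU. HMU replicate 2 was its lowest library, at 136.6 CPM. BACH1 and NFE2L1 of this list are given beside it, also outside the naming rule. BACH1, at 76.8 CPM in PBS and 60.9 CPM in HMU, was not called (-0.33, edgeR adjusted p = 0.167). NFE2L1, at 404.5 CPM in PBS and 420.7 CPM in HMU, was not called either (0.06, edgeR adjusted p = 0.467).

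Upstream, of 32 MAP kinase cascade genes 14 were higher and 9 lower, against 24.8% and 24.9% of all tested genes, so that the share of lower genes was near that of all genes. The median log2 fold change was 0.22, and -0.06 with library sizes only. MAP2K3, an activator of p38 kinases, rose by 2.18 ± 0.072 SE on the log2 scale, to 212 ± 9.50 CPM from 46.9 ± 2.16 CPM, and MAP3K8, the kinase TPL2 of the ERK branch, from 7.06 ± 0.753 to 17.8 ± 1.44 CPM. MAP2K6, also upstream of p38, fell from 5.35 ± 0.280 to 1.51 ± 0.320 CPM and MAP3K2 from 76.1 ± 2.05 to 32.9 ± 8.65 CPM. With library sizes only 7 of this list were higher, where 13.4% of all genes were, and 9 were when PBS replicate 1, 2 or 3 or HMU replicate 1 was left out. Of 8 tested SRF, TCF and MEF2 factors, which drive FOS and JUN transcription, 3 were higher and 3 lower, against 24.8% and 24.9% of all tested genes, with a median of 0.01. ELK3 rose from 48.3 ± 1.06 to 157 ± 24.7 CPM and MRTFA, an SRF coactivator, from 41.0 ± 0.337 to 73.7 ± 4.10 CPM. MRTFB fell from 64.7 ± 1.03 to 40.8 ± 11.3 CPM and ELK4 from 76.5 ± 1.04 to 53.3 ± 14.3 CPM, but 0 members were lower when PBS replicate 1, 2 or 3 or HMU replicate 1 was left out, and 5 were with library sizes only, where 43.7% of all genes were. The call of ELK4 (edgeR adjusted p = 0.0466) was also lost with RLE scaling (0.052) and with no filter (0.0828).

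Of 7 genes of AP-1 protein turnover and mRNA decay, 4 were higher and 2 lower, against 24.8% and 24.9% of all tested genes, with a median of 0.45; the share of lower genes was near that of all genes. ITCH, a ubiquitin ligase for JUN proteins, rose from 132 ± 2.22 to 347 ± 73.5 CPM, and ZFP36L1, which binds AU-rich elements and promotes mRNA decay, from 336 ± 15.9 to 707 ± 80.9 CPM. DET1, part of a ligase complex that targets JUN, fell from 2.01 ± 0.347 to 1.12 ± 0.130 CPM, and FBXW7, another JUN ligase subunit, from 37.4 ± 1.17 to 26.8 ± 2.28 CPM.

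Of 26 tested genes with known AP-1 sites, 22 were higher and 1 lower, where 24.8% and 24.9% of all tested genes were; the median log2 fold change was 1.73. CXCL8, a neutrophil chemokine, and IVL, a precursor of the cornified envelope, rose most among those at a mean of 1 CPM or more over all 6 libraries. CXCL8 went from 0.887 ± 0.224 to 110.2 ± 22.4 CPM, so that it met this mean only through its HMU values. IVL went from 7.18 ± 1.08 to 204.6 ± 20.4 CPM. IL6, also named after its value was seen, had 0 counts in PBS and a mean of 0.757 CPM after HMU, with HMU replicate 2 lowest at 0.452 CPM. By that mean, IL6 was at least 18.0-fold higher against a floor of 3 counts per library. The cyclin gene CCND1 was the lower member. It was at 269 ± 1.14 CPM in PBS and 231 ± 9.56 CPM in HMU, and fell by 0.22 ± 0.060 SE on the log2 scale (edgeR adjusted p = 0.0178). That call was lost without PBS replicate 1, 2 or 3 or HMU replicate 1, and with the length trend removed. Many of these genes are also known targets of NF-kB and other factors, and the list was drawn up with earlier results of these data known.

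**Figure D5:**
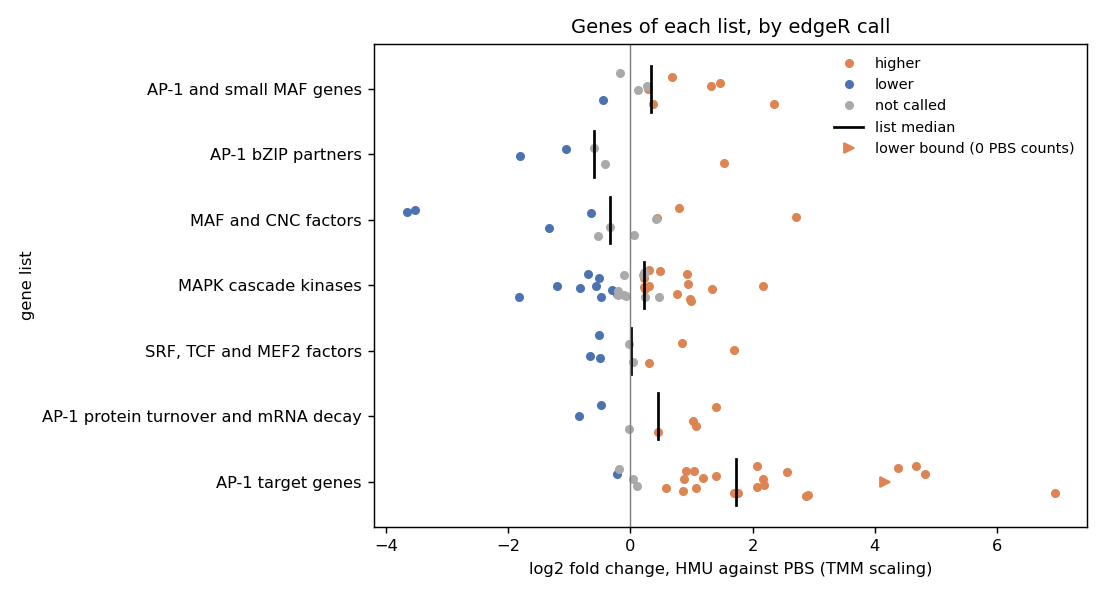
Log2 fold change (HMU against PBS, TMM scaling) of each tested gene, by list, coloured by call (orange higher, blue lower, grey not called), with the list median as a black line; the arrowhead is IL6 at its lower bound. The AP-1 target genes lie mostly right of 0 (median 1.73), while AP-1 partners and other MAF or CNC factors have medians of -0.59 and -0.33.

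The genes whose pattern over the 6 libraries was closest to that of FOSL1, by root mean square distance of centred log2 CPM among genes with a mean of 1 CPM or more, were DNAH17 (0.0840), CCDC71L (0.100), MMP1 (0.108), KLK14 (0.120) and RAPGEF3 (0.121). With 3 libraries in each of the groups, this distance takes in the size of the change between groups. DNAH17 was low in PBS, at 0.283, 0.447 and 0.458 CPM (20, 32 and 33 counts), and at 2.17 ± 0.223 CPM in HMU. It met the mean of 1 CPM only through its HMU values. MMP1, the interstitial collagenase and a listed AP-1 target, was at 6.95, 8.66 and 8.75 CPM in PBS and at 37.7, 38.0 and 33.7 CPM in HMU. Its lowest PBS value was in replicate 1 and its lowest HMU value in replicate 3, as for FOSL1. The distance that picked MMP1 selects for such likeness, so this is not a separate observation.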

How the data were processed

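Counts, FPKM and TPM were taken from 1 deposited table with a column of each per library. The deposited read counts are whole numbers per gene and not normalised, per the file headers; the deposited FPKM divide reads by gene length and by library size, and the deposited TPM divide by length and then bring each library to the same sum, per the file headers and values. Per the submitters' processing notes the tools were StringTie 2.1.3b, HISAT2 2.1.0, Trimmomatic 0.38 and FastQC 0.11.7, with GRCh38 as the build. The sources used here do not give the counting tool or whether it used strand. Treated columns are headed HMO where the labels write HMU.

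Tests were run with edgeR 4.0.16 under R 4.3.3 (filterByExpr, TMM, default glmQLFit, group as the only term; 17990 genes tested; called at an adjusted p under 0.05), and standard errors are the log2 fold change over the square root of F. The named genes are the 10 members and MAFG. From each list, only genes at a mean of 1 CPM or more over all 6 libraries were considered. Of these, up to 2 called genes with the largest rise and up to 2 with the largest fall are named. Also named are the 5 genes nearest to the most changed member. A gene that this rule names is not reported here. Neighbouring genes were named for their overlap with a member. The members and lists were chosen with earlier results of these data known. Depth was even between libraries, and member counts were 370 to 26311 per library, so that counting error weighs most on FOSB, the lowest. Implied length is counts over FPKM and total counts. DESeq2 1.42.0, limma 3.58.1 and other settings were tried as alternatives; the fit with adjusted deviances and the removal of a loess length trend were added after seeing the data. On simulated counts with 17990 genes, edgeR recovered 98% of genes changed 2-fold, 54% of those changed 1.5-fold and 8% of those changed 1.25-fold. It made 8 calls among 17790 unchanged genes. The simulation changed 50 genes at each fold, gave every gene the same dispersion and held no outlying library. In the data 49.7% of tested genes were called, so these rates do not give the power or error for the members. Coordinates are from NCBI RefSeq (GRCh38.p14), matched by gene ID for all 10 members.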

Additional observations from a re-analysis of the deposited data

How the results depend on the processing

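FOSL1, JUND, MAFF and MAFK kept their direction and call under all 17 alternatives. The count of higher members was 4 to 6 under the settings with all libraries. Lower members numbered 1, but 2 with library sizes only and with the length trend removed, 3 on log2(TPM + 1) and on log2(TPM + 0.1), and 0 to 2 when 1 library was left out. The cause was not tested, except that leaving out a library leaves fewer samples. Over all genes, the higher and lower calls were 4457 and 4487. They became 2413 and 7855 with library sizes only, on log2(TPM + 1) 1975 and 9153, and on log2(TPM + 0.1) they were 1965 and 9126. The median log2 fold change of the 10 members was 0.33, but -0.07 on log2(TPM + 1), where that of all genes was -0.27. Signs turned for FOS (-0.10 on both TPM scales), FOSB (-0.0027 with library sizes only, -0.0884 and -0.1134 on log2(TPM + 1) and log2(TPM + 0.1)), JUN (-0.15, -0.27 and -0.27) and ATF3 (-0.055 and -0.0591 on these TPM scales). Among lists, lower AP-1 partners numbered 2, but 4 with library sizes only, on both TPM scales and with the length trend removed. They numbered 3 with DESeq2, limma-voom, a filter of 1 CPM in 3 libraries, a replicate block or adjusted deviances. Without HMU replicate 2 or 3 the lower partners also numbered 3. The higher ones numbered 2 with no filter. Higher MAP kinase genes numbered 14, but 7 with library sizes only and 5 on both TPM scales (14 lower there), and 9 to 17 with 1 library left out. Lower SRF, TCF and MEF2 factors numbered 3, but 5 with library sizes only and on both TPM scales, and 0 to 3 with 1 library left out. Lower AP-1 targets numbered 1, but 2 with library sizes only and on both TPM scales, 0 with the length trend removed, and 0 to 1 with 1 library left out. The FOSL1 share of FOS family TPM differed between groups by 41.3 percentage points, and by 27.8 points in read counts without length scaling, where the shares of FOS and FOSB turned (0.770 and 0.178 points). Shares of FPKM gave the same values. Replicate numbers did not pair the libraries (correlations of deviations -0.019, 0.0346 and 0.0477); with a replicate block 6 members were higher and 1 lower, and 4173 and 4250 of all genes. The groups rest on 3 libraries each, so an exact test of a share or ratio cannot reach a p under 0.1.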
